A study of Mus musculus with 2 samples.

Results

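The cells described here are 201 tumor cells of a mouse melanoma that carried little RNA of cell division genes and the most Mgp and Prg4 RNA. They were chosen by 2 sums of unique molecular identifiers (UMIs, each standing for 1 captured RNA molecule). A low-cycling cell had fewer than 5 UMIs per 10000 of Top2a, Mki67, Cenpf, Ube2c and Prc1 together, which are genes of DNA decatenation, proliferating nuclei and mitosis. Of the 1009 low-cycling cells, the top 20% by summed Mgp and Prg4 UMIs per 10000 were taken as Mgp/Prg4-rich, and the other 808 served as the comparison. The 201 cells made up 19.9% of the low-cycling cells, 13.3% of the 1514 cells with a clear pair of hashtags and 0.961% of the 20917 barcodes in the matrix. Because Mgp and Prg4 RNA in these same cells made the choice, the differences reported here describe the cells chosen and were not tested.

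The cells came from NRAS-mutated mouse melanoma (NMM) tumors grown in Rag-/- mice, which make no T or B cells of their own. 18 tumors were labelled with hashtag antibodies and pooled, with 6 from each condition. The conditions were named Mix PBS, which received PBS, Mix + T and Ag-GAS + T, which received T cells. The sources used here state no dose, time or age of the mice. CFP+ tumor cells, called bystander cells in the labels, were sorted from the pool and profiled with the 10x 3' assay, so every cell analysed shares the NRAS mutation, the host and the sort. The labels tie no hashtag to a condition, so the pool was 1 sample and no comparison between conditions was made.

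Mgp encodes matrix Gla protein, a secreted inhibitor of calcification that also binds bone morphogenetic proteins. Prg4 encodes lubricin, the proteoglycan that lubricates joint surfaces. Itga1 encodes the alpha 1 integrin subunit, which pairs with beta 1 to bind collagen. Melanoma cells can lose the pigment program and take on mesenchymal, matrix-producing and slowly dividing states, and none of these genes belongs to the pigment program.

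The label was checked against marker genes. Pax3, a neural crest and melanocyte transcription factor, had a UMI in 65.7% of the Mgp/Prg4-rich cells and in 65.3% of the other low-cycling cells. Slc24a5, a melanosomal exchanger, had a UMI in 66.7% and 66.5%. The pigment genes Tyr, Tyrp1, Mlana and Slc45a2, and also Sox10 and Kit, had no UMI in the Mgp/Prg4-rich cells, where a count of 0 allows a UMI in at most 1.49% of the cells and sets no limit on expression. In the other low-cycling cells only Sox10 (2 UMIs) and Mlana (1 UMI) of these 6 genes were seen. The 11 melanocyte genes together held 87.8 UMIs per 1000000 gene UMIs (CPM) against 76.5 CPM.

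Markers of other cell types gave a mixed picture. The 13 fibroblast markers summed to 2084 CPM in the Mgp/Prg4-rich cells and 1563 CPM in the others. Ranges over hashtag pairs were 1421 to 2579 and 685 to 2045. Col3a1 gave most of that sum in both sets (1651 and 922 CPM). Over all cells, what was left of the sum without Col3a1 was lower in the Mgp/Prg4-rich cells than in the others. Of the 9 fibroblast markers compared, Pdgfra, Col1a1, Col3a1 and Fap were higher by the rule given below and none was called lower. By the mean over pairs 7 of the 9 were above 0 and 2 below. Dpp4 and Mfap5 were at 0 and Pi16 and Clec3b had 1 UMI each. Single values of Lum, Dcn, Dpt and Ly6c1 are not given here. Col1a2, the partner chain of Col1a1 in type I collagen, was 3.37 against 38.4 CPM and lower in 10 of 15 pairs (-0.74 ± 1.33), so it was not called and ran opposite to Col1a1. Pdgfrb, a pericyte and fibroblast receptor, was 53.5 against 16.4 CPM, whereas the smooth muscle genes Myh11, Cnn1 and Des were at 0. Of the cartilage markers, Acan, Col2a1, Col9a1, Matn3 and Cnmd were at 0. Of the synovial lining markers other than Prg4, Clic5 and Cd55 were at 0, Htra4 had 5 UMIs and Vcam1 was 42.0 against 41.5 CPM. The macrophage list held 2.14 CPM in the Mgp/Prg4-rich cells and 24.9 CPM in the others, and Csf1r, Adgre1 and Ptprc were at 0. The T cell list was carried by Trbc2 (95.1 and 89.5 CPM), while Cd3d, Cd3e, Cd3g, Cd8a, Cd4 and Trac were at 0. Endothelial markers held 24.7 against 40.9 CPM with Pecam1, Tek and Cldn5 at 0, and the dendritic, NK, B, erythroid and muscle lists each held under 1 CPM. The Schwann (6.13 and 4.77 CPM), neutrophil (3.52 and 3.82), adipocyte (0.766 and 2.77) and keratinocyte lists (7.81 and 7.21) were low in both sets. How far fibroblasts or other cells that passed the CFP sort add to the values below was not tested.

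The ranking genes were concentrated in few cells. Mgp was 1113 CPM (95% Poisson interval 1087 to 1139, counting error only) in the Mgp/Prg4-rich cells and 3.99 CPM in the others, and the chosen cells held 98.2% of the Mgp UMIs of all low-cycling cells. Prg4 was 374 against 3.73 CPM. A Mgp UMI was found in 73.6% of the Mgp/Prg4-rich cells, 12.5% of the others and 13.3% of the cycling cells, at median depths of 31020, 40652 and 62131 UMIs. After each cell was thinned to 20000 UMIs, which left out 23, 83 and 27 cells, those shares were 73.6%, 7.72% and 8.37%. Barcodes under 800 UMIs, which hold mostly RNA from outside intact cells, carried 86.7 CPM of Mgp and 22.3 CPM of Prg4, more than the other low-cycling cells did.

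Within the 201 cells the summed level ran from 1.19 to 214.9 UMIs per 10000 with a median of 5.73, and the 20 highest cells held 51.1% of the UMIs of both genes. The cell just inside the threshold had 1.19 per 10000 and the cell just outside 1.16, both from 4 UMIs, and 88 low-cycling cells lay within 2-fold of it. Thus 28 of the 201 cells rested on 5 UMIs or fewer, while 641 of the 808 others had none. The set is therefore a range of a continuous level, and not a class with a gap around it. UMIs of both genes were seen in 98 cells, of Mgp only in 50 and of Prg4 only in 53. 

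**Figure D1:**
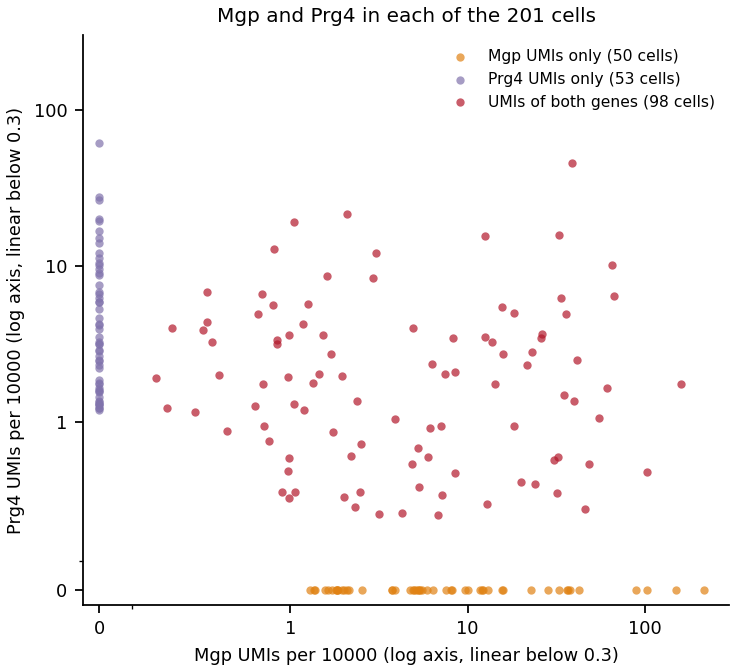
Mgp (x axis) and Prg4 (y axis) UMIs per 10000 gene UMIs in each of the 201 Mgp/Prg4-rich cells, on log axes that are linear below 0.3; each point is 1 cell. The highest cells lay along the Mgp axis, up to 214.9 per 10000, and 103 cells had UMIs of a single one of the genes.

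The choice of the ranking gene mattered for some genes. Across 903 low-cycling cells of every level, thinned to 20000 UMIs, Pearson's r of the log levels of Mgp and Prg4 was 0.27, given as a description across cells of 1 library. When the top 20% was taken by Mgp alone, Prg4 was higher by 1.18 on the log2 scale, and when it was taken by Prg4 alone, Mgp was higher by 1.49. Aspn, a small leucine-rich proteoglycan of the matrix, was higher by 2.02 in the cells taken by Mgp alone and by 0.97 in those taken by Prg4 alone. Plac8, 1 of the named higher genes below, differed by 1.70 in the former and by only 0.03 in the latter.

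The Mgp/Prg4-rich cells were shallower and lower in cycle genes than the cells they were compared with. Their median was 31020 UMIs and 5254 genes against 40652 UMIs and 5810 genes, and the median UMI count was lower in 15 of the 15 hashtag pairs compared. The 5 cycle genes of the rule summed to 51.9 against 127 CPM, also lower in 15 of 15 pairs. Mitochondrial UMIs were 2.72% and 2.58%. The median hashtag count was 1461 against 3256 UMIs over all cells but was lower in only 4 of 15 pairs. Levels were therefore also set against 1 other cell for each Mgp/Prg4-rich cell, taken from its own hashtag pair and nearest in depth and cycle sum. In those matched cells the medians were 31020 and 35167 UMIs and the cycle sums 51.9 and 62.5 CPM. Some pairs held few others to choose from, so the match was not equally close in each pair. In the pair with 9 Mgp/Prg4-rich cells among 18 low-cycling cells all others were used. Its median cycle sums were 0.351 and 2.40 per 10000. This comparison was chosen after the data were seen.

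Genes were compared within hashtag pairs, because the share of Mgp/Prg4-rich cells differed between pairs. The 18 tag pairs found equal the number of tumors pooled, and 15 of them held at least 5 cells of each set, 192 Mgp/Prg4-rich and 771 others. In each pair the log2 ratio of summed CPM was taken with 10 CPM added to both sides, which understates the difference for low genes, and the ratios were averaged with equal weight. A gene was called higher or lower when the mean difference was at least 1.5-fold and had the same direction in at least 75% of pairs (12 of 15). The spread given is the SD over pairs, which measures differences between tag pairs and counting noise, not between replicate experiments.

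Among the 10957 genes detected in 5% or more of low-cycling cells, 230 were higher (2.1%) and 448 lower (4.09%), together 6.19%, and the median of all genes was -0.06 on the log2 scale. Against the matched cells 120 were higher (1.1%) and 71 lower (0.648%), of which 106 and 64 were also called in the comparison with all others. All 230 genes kept a mean above 0 against the matched cells and 441 of the 448 a mean below 0. The 15 pairs gave ranges that did not overlap between the sets for 79 genes of the 10957, of which 55 were called.

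Itga1 had the second largest difference of the 20 genes named as highest. Its level over the 15 pairs was 56.8 CPM at the lowest, 269 at the median and 352 at the highest in the Mgp/Prg4-rich cells, against 11.6, 28.4 and 131 in the others. The pair ranges overlapped, but within every pair the Mgp/Prg4-rich cells were higher. The mean log2 difference was 2.51 ± 0.85 (SD over 15 pairs), or 5.71-fold, and 2.20 against matched cells. A UMI of Itga1 was found in 64.0% of thinned Mgp/Prg4-rich cells and 17.9% of thinned others. The gene lies on chromosome 13 at 114953096 to 115101964 on the minus strand (GRCm38).

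Penk, which encodes the precursor of the enkephalin opioid peptides, had a difference of the same size and was far less even. Its levels were 0, 136 and 386 CPM (lowest, median and highest pair) against 0, 7.92 and 43.3 CPM, and it was higher in 14 of 15 pairs with a mean of 2.52 ± 1.32. The exception was a pair of 8 Mgp/Prg4-rich cells without a Penk UMI. Only 28.1% of thinned Mgp/Prg4-rich cells had a Penk UMI, against 8.83% of thinned others. Penk was thus carried by a minority of the cells.

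Several of the named higher genes encode matrix or matrix-binding proteins. Aspn was 118 against 21.9 CPM over all cells, with a mean log2 difference of 1.87 ± 1.16 and higher levels in 14 of 15 pairs. Tgfbi, a secreted adaptor protein that links collagen and integrins and is a known target of TGF-beta, was 124, 295 and 337 CPM (lowest, median and highest pair) against 44.8, 70.1 and 209 CPM. It was higher in every pair, by 1.67 ± 0.59, and was found in 89.9% of thinned Mgp/Prg4-rich cells and 42.8% of thinned others. Against matched cells the difference was 1.04. Col6a1 and Col6a2, which encode chains of the microfibrillar type VI collagen, were 147 against 38.1 CPM and 64.8 against 11.3 CPM and lie near each other on chromosome 10. Edil3, an integrin-binding matrix protein, was 1 of the 2 among the 20 named higher genes, beside Spry1, whose pair ranges did not overlap, at 71.9 to 190 against 8.83 to 68.2 CPM.

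Igsf10, an immunoglobulin superfamily matrix protein, differed by 1.51 ± 0.70, and Fap, a surface serine protease best known from activated fibroblasts, by 1.43 ± 0.65. Serpine2, a secreted inhibitor of thrombin and other serine proteases, was 442 against 152 CPM. Cdh11, a mesenchymal cadherin, was 83.2 against 19.5 CPM. The membrane proteins Tmem176a and Tmem176b, encoded side by side on chromosome 6, differed by 1.56 ± 0.59 and 1.44 ± 0.63. Those 2 genes overlap at their starts on opposite strands, and the sources used here do not state whether the counting used strand.

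Inside the cell, Spry1, which restrains signalling from receptor tyrosine kinases to the MAP kinases, had the smallest spread of the 32 genes named as highest and lowest. Its levels were 159, 265 and 331 CPM (lowest, median and highest pair) against 60.7, 81.9 and 132 CPM, so the sets did not overlap. The mean was 1.41 ± 0.33, and 1.02 ± 0.42 against matched cells, higher in all 15 pairs in both comparisons. Fcgrt, the neonatal Fc receptor that salvages IgG and albumin, differed by 1.46 ± 0.42 and by 0.92 against matched cells. Add3, a spectrin-actin linker, and Rcn3, a calcium-binding protein of the secretory pathway, differed by 1.37 ± 0.95 and 1.35 ± 0.77. Plac8, a small cysteine-rich protein, had the widest spread, 1.46 ± 2.00 and higher in 12 of 15 pairs. Of the 20 genes 12 were higher in all 15 pairs, and all 20 met the same rule against the matched cells.

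**Figure D2:**
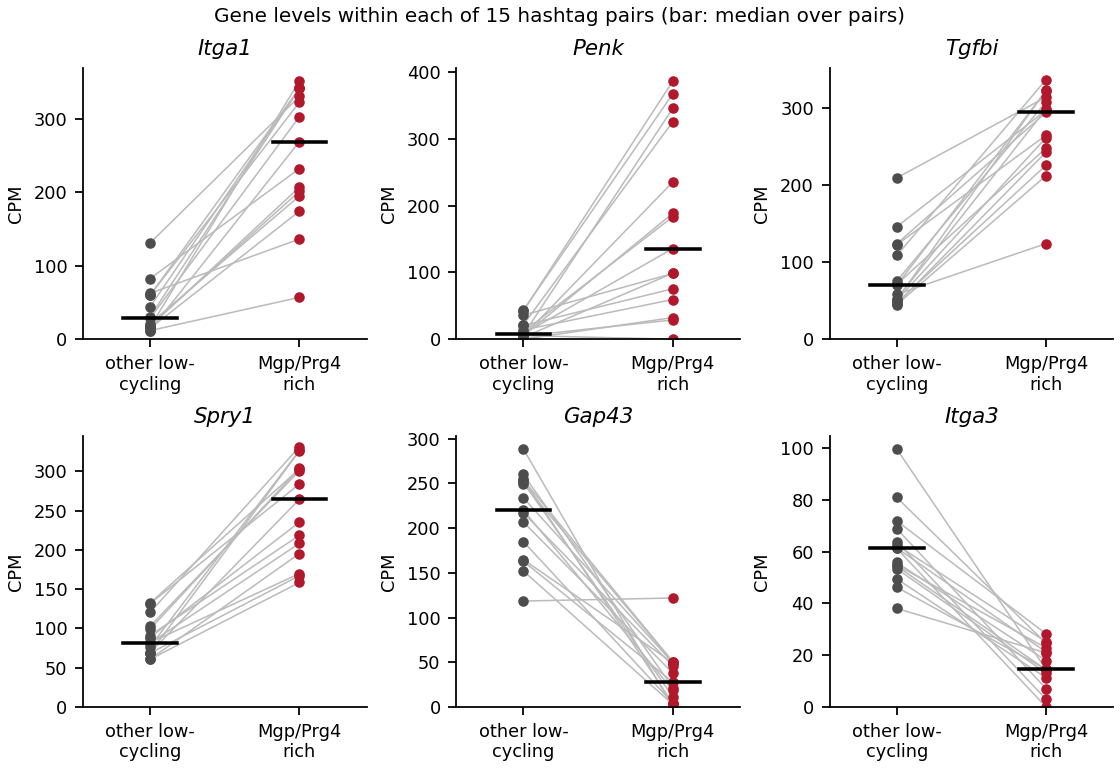
Summed CPM (y axes, each starting at 0) of 6 genes in the other low-cycling cells and the Mgp/Prg4-rich cells of each of 15 hashtag pairs; a point is a pair, lines join the same pair and bars are medians over pairs. Spry1 and Itga3 do not overlap between the sets, while Gap43 stays level in a single pair (119 and 122 CPM).

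Promoter sequences are shown for 4 of the higher genes, chosen to show the collagen receptor subunit, a matrix proteoglycan, a type VI collagen chain and the signalling gene with the smallest spread. RefSeq (GRCm38.p6) gave a promoter window for 14 of the 20 genes. Each sequence is the 250 bases before a transcription start, 5′ to 3′ on the gene's own strand, and capitals mark matches to the motifs searched. The windows lie at chr13:115101965-115102214 on the minus strand for Itga1, chr13:49544193-49544442 on the plus strand for Aspn, chr10:76623631-76623880 on the minus strand for Col6a2 and chr3:37639697-37639946 on the plus strand for Spry1.
Itga1: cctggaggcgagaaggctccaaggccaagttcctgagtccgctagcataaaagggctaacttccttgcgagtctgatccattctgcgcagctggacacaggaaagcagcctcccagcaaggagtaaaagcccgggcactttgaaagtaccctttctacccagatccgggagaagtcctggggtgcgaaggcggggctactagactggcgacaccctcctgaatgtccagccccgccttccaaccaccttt
Aspn: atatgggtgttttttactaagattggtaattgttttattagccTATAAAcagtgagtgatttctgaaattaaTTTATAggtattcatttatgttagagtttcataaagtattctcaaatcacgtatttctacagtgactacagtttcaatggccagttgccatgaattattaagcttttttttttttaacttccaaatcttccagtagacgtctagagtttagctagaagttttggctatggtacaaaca
Col6a2: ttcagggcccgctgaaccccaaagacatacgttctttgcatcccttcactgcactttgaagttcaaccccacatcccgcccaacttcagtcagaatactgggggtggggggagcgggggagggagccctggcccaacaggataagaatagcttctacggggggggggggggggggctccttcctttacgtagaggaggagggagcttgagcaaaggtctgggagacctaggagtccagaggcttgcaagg
Spry1: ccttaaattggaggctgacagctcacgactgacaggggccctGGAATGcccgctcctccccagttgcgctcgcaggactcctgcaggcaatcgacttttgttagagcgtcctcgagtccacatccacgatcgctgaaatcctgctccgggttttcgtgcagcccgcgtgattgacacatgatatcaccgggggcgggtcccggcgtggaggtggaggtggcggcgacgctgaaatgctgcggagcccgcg
On both DNA strands 8 motifs were searched. The letters TATAAA stood for the TBP box of core promoters, and the letters TGANTCA for AP-1 factors. The letters GGAATG stood for TEAD factors and TGTGGT for RUNX factors. The SMAD palindrome was searched as GTCTAGAC, the cyclic AMP response element as TGACGTCA and the NF-kappaB site as GGGANTTCC. The last was the interferon-stimulated response element. GGAATG was found in 6 of the 14 genes (Col6a2, Igsf10, Rcn3, Spry1, Tmem176a and Tmem176b), against 14.4% of all genes with a window, and the overlapping windows of Tmem176a and Tmem176b hold the same match. The match of Col6a2 lies in another of its windows than the one printed. TATAAA was found in Aspn alone and TGANTCA in Col6a1 alone, against 14.3% and 7.82% of all genes. The RUNX letters were found in Add3 and Plac8 (15.9% of all genes) and the interferon element in Rcn3 and Tgfbi (3.46%). The SMAD, cyclic AMP and NF-kappaB motifs had no match. Some genes have several windows, and a match is a description of letters and not a binding site.

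The genes lower in the Mgp/Prg4-rich cells included several that are not part of DNA replication or mitosis. Gap43, a growth-cone protein of neurons and Schwann cells, was 0, 27.9 and 122 CPM (lowest, median and highest pair) against 119, 220 and 289 CPM. It was lower in 14 of 15 pairs by a mean of -2.70 ± 1.23, and in the remaining pair it was level. Itga3, the alpha 3 integrin subunit that pairs with beta 1 to bind laminins, was 0, 14.6 and 28.3 CPM against 38.0, 61.3 and 99.6 CPM, so its pair ranges did not overlap. Its mean difference was -1.52 ± 0.62, and -1.08 against matched cells. Cdkn1a, the p21 inhibitor of cyclin-dependent kinases, was lower in 14 of 15 pairs, with a mean of -1.63 ± 1.27. Hbegf, a ligand of the EGF receptor, and Il11, a cytokine of the IL-6 family, were 22.4 against 74.0 CPM and 121 against 288 CPM, lower in 13 and 12 of 15 pairs. Gap43, Itga3 and Hbegf met the rule against matched cells too (-1.93, -1.08 and -1.36), whereas Cdkn1a (-1.25, lower in 11 of 15 pairs) and Il11 (-1.32, lower in 10 of 15) missed it on the number of pairs.

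The other 7 named lower genes act in DNA replication or mitosis. Pclaf, a PCNA-binding protein, was 12.6 against 76.4 CPM without overlap of the pair ranges, and Rrm2, a subunit of ribonucleotide reductase, was 5.67 against 40.9 CPM. Ccnb2, Cenpa, Anln, Birc5 and Spc24, which act in mitotic entry, centromeres, cytokinesis, chromosome segregation and kinetochores, differed by -1.49 to -1.93. These differences were smaller against matched cells. Against matched cells Pclaf differed by -0.55, Rrm2 by -0.54 and Birc5 by -0.26, and of the 7 genes Ccnb2 (-1.03) and Spc24 (-0.74) met the rule.

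Lists of genes with a shared role are described by counts and medians and were not tested. Their counts stand beside 2.1% of all compared genes higher and 4.09% lower.

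Collagen genes were higher as a list. Their summed level was 2205, 3124 and 3600 CPM (lowest, median and highest pair) against 1114, 1543 and 2295 CPM and was higher in all 15 pairs, by 0.88 ± 0.27 on the log2 scale. Of 16 collagen genes compared, 8 were higher and none lower, with a median of 0.75. Besides the type VI chains these included Col1a1 (78.6 against 37.3 CPM), Col6a3 (34.0 against 7.0) and Col11a1 (38.3 against 10.3), with Col3a1 at 0.88 ± 0.29. Against matched cells the difference of the sum was 0.45 ± 0.51, higher in 14 of 15 pairs, and 5 genes were called, while Col3a1 (0.40) and Col11a1 (0.69) were not. Of the 16 genes Col1a2 alone had a mean below 0, as given above. Of 22 enzymes and inhibitors of matrix crosslinking and turnover 6 were higher and none lower, among them Timp3, an inhibitor of metalloproteinases (1.27 ± 0.81), the proteases Adamts1 (1.07 ± 0.75) and Adamts5 (0.87 ± 0.67), and Lox, which crosslinks collagen (0.92 ± 0.96). Those 4 were also called against matched cells. Mmp3, a metalloproteinase, was 1678 against 585 CPM but higher in only 11 of 15 pairs and so was not called.

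Among proteoglycans and glycoproteins 6 of 27 were higher and 1 lower. Bgn, biglycan, was 1388 against 676 CPM, Lama4, a laminin chain, differed by 1.05 ± 1.00 and Emilin1, an elastic fibre protein, by 0.93 ± 0.49. Fbln2, fibulin 2, ran the other way (15.5 against 42.3 CPM, lower in all 15 pairs, -1.02 ± 0.63). Against matched cells 5 of the 27 were higher and 1 lower; Lama4 and Fbln2 were among them, and Bgn (0.52) and Emilin1 (0.52) were not. Among 7 calcification inhibitors and lubricants, which include Mgp and Prg4 themselves, 6 were higher. Outside the rule these were Fetub, a fetuin (1.20 ± 0.69), Ank, a transporter that raises extracellular pyrophosphate (773 against 282 CPM, 0.98 ± 0.51), Bgn (0.85 ± 0.37) and Clu (0.83 ± 1.27). Fetub and Ank were also called against matched cells, and Bgn and Clu were not. The lists of synovial lining and of cartilage and bone genes gave no comparable count: 1 of 6 and 1 of 4 genes were higher, Prg4 and Col11a1, and Runx2, a transcription factor of bone formation, was 32.2 against 27.6 CPM.

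Ligands and receptors of TGF-beta and bone morphogenetic proteins (BMPs), a family that Mgp can bind, were higher for 6 of 18 genes and lower for none, with a summed difference of 0.54 ± 0.20 in 15 of 15 pairs. They comprised the ligand Bmp2 (79.6 against 30.9 CPM, 1.09 ± 0.62), the BMP antagonist Grem1 (266 against 126 CPM, 0.93 ± 0.45), the receptors Tgfbr1, Tgfbr2 and Tgfbr3 and the latent TGF-beta binding protein Ltbp3. Response genes were higher for 3 of 10, Tgfbi, Id3 (884 against 449 CPM, 0.84 ± 0.61) and Id2 (0.70 ± 0.43). Against matched cells 2 ligand and receptor genes, Bmp2 and Grem1, and 1 response gene, Tgfbi, were called, and the sums remained higher in 15 and 13 of 15 pairs. Targets of YAP and TEAD did not share a direction: none of 13 was higher and 2, Wwc1 and Amotl2, were lower, while Ccn1 was 129 against 66.8 CPM without being called (0.36 ± 1.35). Against matched cells neither Wwc1 (-0.63) nor Amotl2 (-0.52) was called, and 1 gene of the 13, F3, was higher.

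Integrins and other adhesion receptors were split, with 3 of 18 higher and 4 lower. Itga1, Itgb5, a subunit of the vitronectin receptor (0.66 ± 0.58), and Sdc2, the heparan sulfate proteoglycan syndecan 2 (0.83 ± 0.38), were higher. Itga3, Itga6, another laminin-binding subunit (-0.66 ± 0.92), Itga2 and Cd44 were lower. Against matched cells 2 were higher, Itga1 and Sdc2, and 1 lower, Itga3, while Itgb5 (0.35), Itga6 (-0.29), Itga2 (-0.36) and Cd44 (-0.45) were not called. Growth factors and receptors were split as well, with 5 of 22 higher and 6 lower. Vegfd, a lymphatic growth factor (1.34 ± 0.53), and Pdgfrb (1.19 ± 0.82) were higher in every pair, whereas the EGF receptor ligands Hbegf and Areg (-1.30 ± 1.70) were lower in 13 pairs each. Against matched cells 3 growth factor and receptor genes were higher and 4 lower, with Vegfd, Pdgfrb and Hbegf among them and Areg (-0.92) not. Output genes of the MAP kinase pathway had 4 of 16 higher, Spry1, Etv1 (0.86 ± 0.30), Spry2 (0.73 ± 0.45) and Phlda1 (0.71 ± 0.56), and 3 lower, led by Fosl1, a subunit of AP-1 (32.5 against 101 CPM, -1.25 ± 0.64). Against matched cells Spry1 and Phlda1 stayed higher and Fosl1 lower (-1.01).

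**Figure D3:**
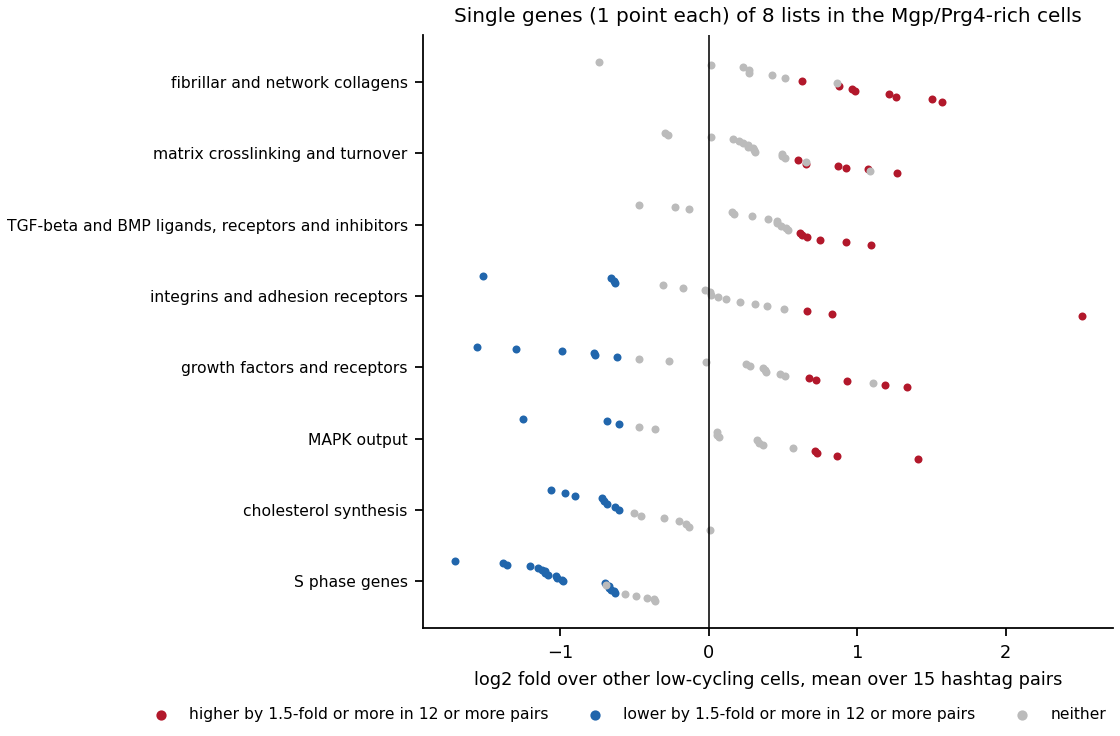
Mean log2 difference over 15 hashtag pairs (x axis) of each compared gene of 8 lists (y axis). A point is a gene, coloured by whether it met the rule. The rule asks for a mean difference of at least 1.5-fold and the same direction in at least 12 pairs. Collagen and TGF-beta/BMP genes were called only on the higher side, S phase and cholesterol genes only on the lower side, and integrins, growth factors and MAP kinase outputs on both.

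Cell cycle lists outside the rule were lower. Of 25 S phase genes 19 were lower (median -0.98) and of 25 G2/M genes 18 (median -0.79), and their sums were lower in all 15 pairs, by -1.12 ± 0.45 and -1.20 ± 0.42. Since the rule drew on cycle genes of the same cells and the sets differed in the cycle sum, these counts stand beside the matched ones: 0 and 1 gene called, with sums of -0.28 ± 0.51 and -0.28 ± 0.63. Of the G1 genes Ccnd1 (336 against 545 CPM), Ccne1 and Myc (97.4 against 147 CPM) were lower and none of the 11 met the rule against matched cells. Among CDK inhibitors and quiescence genes Gas1, growth arrest specific 1, was higher (241 against 137 CPM, 0.88 ± 0.54), Cdkn1a lower, and Cdkn2a and Cdkn2b had no UMI. Of 16 p53 targets 3 were lower, Cdkn1a, Aen and Bax (143 against 252 CPM), and none higher. Secretory senescence genes had 2 of 15 higher and 3 lower, with Igfbp7 (183 against 80.8 CPM) on the higher and Lmnb1 on the lower side. Against matched cells none of the CDK inhibitor and quiescence genes, p53 targets or secretory senescence genes was called in either direction, with Gas1 at 0.57 and the p53 target sum at -0.33 ± 0.48.

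Biosynthetic lists were lower to a smaller degree. Of 15 cholesterol synthesis genes 8 were lower and none higher, among them Idi1 (11.6 against 30.1 CPM), Fdps (41.5 against 87.7 CPM), Msmo1 and Sqle, and the sum differed by -0.91 ± 0.44 in 14 of 15 pairs. Against matched cells it was -0.49 ± 0.87, lower in 13 pairs, with no gene called. Of 15 ribosome biogenesis genes 4 were lower, Ncl, Nolc1, Rrp9 and Nop56, and none of the 15 was called against matched cells (sum -0.22 ± 0.22). Hypoxia and glycolysis genes had 2 of 20 lower, Eno1 (310 against 570 CPM) and Mif (622 against 1116 CPM), and the list's sum was nearly the same against matched cells (-0.42 ± 0.19 and -0.39 ± 0.35), where Eno1 and Pgk1 were called and Mif (-0.52) was not. Of 19 unfolded protein and stress response genes 3 were lower, Asns, Sdf2l1 and Manf, and none was called against matched cells. Lysosome and autophagy genes had 3 of 20 higher, led by the protease Lgmn (148 against 66.4 CPM, 1.08 ± 0.49), yet the sum differed by only 0.09 ± 0.22. Of the 3, Lgmn alone was called against matched cells.

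**Figure D4:**
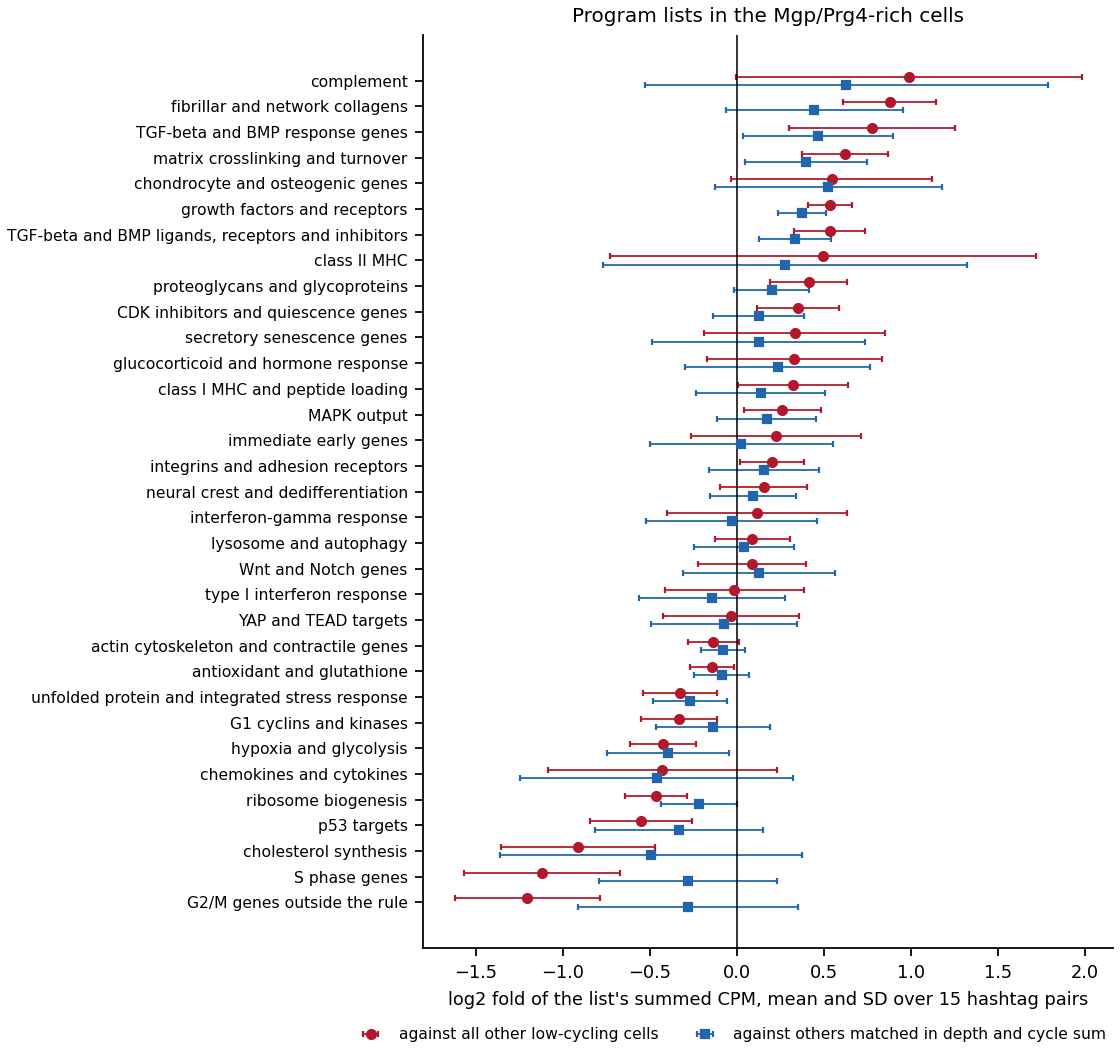
Log2 difference of the summed CPM of 33 program lists (mean and SD over 15 hashtag pairs, x axis) between the Mgp/Prg4-rich cells and all other low-cycling cells (red) or 1:1 matched cells (blue). Collagens (0.88) and TGF-beta response genes (0.78) are near the top and G2/M (-1.20) and S phase genes (-1.12) at the bottom, and the 2 cycle lists move to -0.28 against matched cells.

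Interferon genes depended on how the tag pairs were weighed. The 22 interferon-gamma response genes summed to 2494 CPM in all Mgp/Prg4-rich cells and 3661 CPM in all others, a log2 difference of -0.55. Within pairs the mean was 0.12 ± 0.52, with 8 pairs higher and 7 lower, and 1 of 19 genes, Gbp6, was called higher (0.59 ± 0.53). Class I MHC genes were likewise lower over all cells (-0.34) and higher within pairs (0.33 ± 0.31, 12 of 15 pairs), with H2-Q4 and H2-Q7 called. Type I interferon genes had 1 of 23 lower, Ifit2. Cytokines and chemokines had 3 of 14 lower, Il11, Il1rl1 (56.1 against 283 CPM, -1.36 ± 1.22) and Cxcl10 (521 against 1381 CPM, -0.84 ± 0.89), and Cx3cl1 was higher. Of the 6 class II MHC genes none was called, and their levels ran from 0 to 3029 CPM over the pairs. Against matched cells no interferon or class I gene was called, with Gbp6 at 0.29, Ifit2 at -0.65, H2-Q4 at 0.49 and H2-Q7 at 0.28, and the class I sum was 0.14 ± 0.37 (9 of 15 pairs higher). Il1rl1 (-0.78) stayed called there and Cxcl10 (-0.60) and Cx3cl1 (0.49) did not.

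Few genes of the remaining lists were called. Of 17 immediate early genes Fos was higher (76.4 against 41.6 CPM). Of 10 glucocorticoid response genes Errfi1, of 16 antioxidant genes Gstm1, a glutathione transferase higher in all 15 pairs, and of 18 neural crest and dedifferentiation genes Tcf4 (667 against 321 CPM, 0.87 ± 0.27, higher in all 15 pairs) were higher. Sox2 was 41.7 against 31.8 CPM and not called. Tpm1 and Tagln2 of the 12 actin genes and Nrarp of the 9 Wnt and Notch genes were lower. Against matched cells Errfi1, Gstm1 and Tcf4 were called and Fos (0.68), Tpm1 (-0.40), Tagln2 (-0.41) and Nrarp (-0.39) were not.

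Levels were also read along the amount of Mgp and Prg4 RNA on both sides of the threshold. The bands rest on the values that chose the cells, and the genes were named for their difference across the threshold, so the steps are a description. The low-cycling cells were divided into 641 others with no UMI of either gene, 167 others with some, and Mgp/Prg4-rich cells under 5 (90 cells), from 5 to 20 (68) and from 20 per 10000 (43). Over these 5 bands Itga1 was 23.9, 74.7, 210, 264 and 372 CPM and Spry1 72.1, 113, 214, 262 and 375 CPM. Gap43 ran down from 251 through 139, 50.6 and 41.3 to 11.3 CPM, and Il11 from 308 to 74.0 CPM. Such a steady fall was not typical of the lower genes. Of the 20 named higher genes 14 rose through all 5 bands, but of the 12 named lower genes only 3 fell through all 5. Hbegf, for example, was 71.3 CPM in the first band and 84.9 CPM in the second. Cdkn1a was 12.4 CPM from 5 to 20 per 10000 and 24.9 CPM in the last band. S phase genes summed to 1127, 789, 523, 558 and 490 CPM, so they were level across the Mgp/Prg4-rich bands. Cells in a band were pooled over tag pairs and not compared within them. The first band held cells of 18 pairs and the last of 13. Interferon-gamma response genes summed to 3789 CPM in the first band and 1666 CPM in the last, although their mean difference within pairs was 0.12 ± 0.52. Median depth went down along the bands from 41132 to 29486 UMIs. The parts of depth and of the mix of tag pairs in these levels were not tested.

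**Figure D5:**
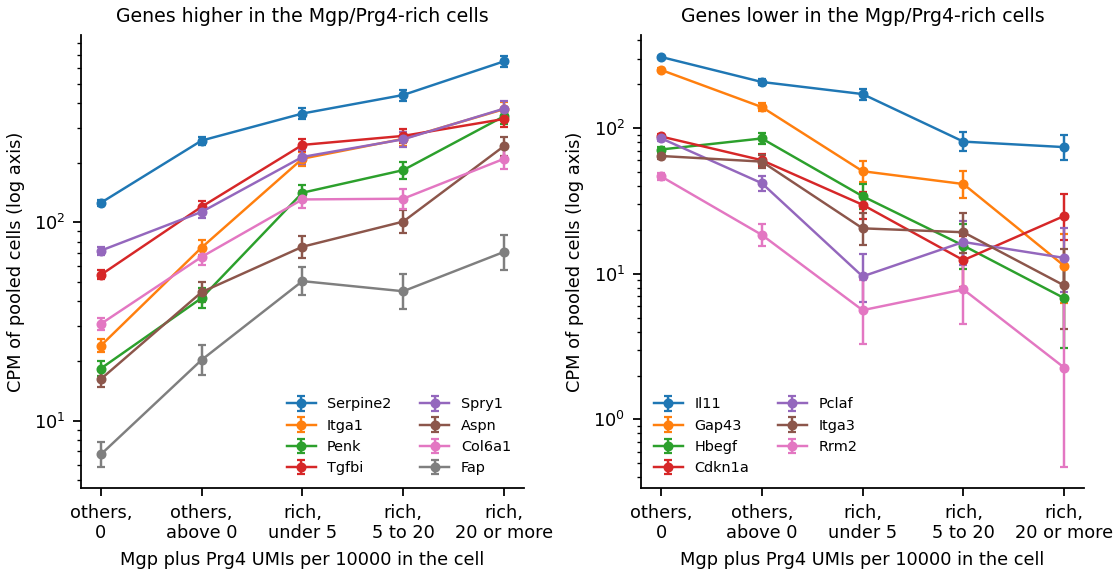
CPM of pooled cells (log axis) with 95% Poisson intervals in 5 bands of summed Mgp and Prg4 UMIs per 10000, for 8 higher genes (left) and 7 lower genes (right); each line is a gene. The 167 others with some UMIs lie between the 641 others without and the Mgp/Prg4-rich cells for every higher gene drawn.

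The cycling cells, which the rule left out, allow the same split. Of 505 cycling cells 19, from 11 tag pairs, reached the lowest level of the Mgp/Prg4-rich cells. In these 19 cells Itga1 was 252 CPM, Tgfbi 186 CPM, Col6a1 290 CPM and Spry1 184 CPM, beside 17.1, 28.2, 25.1 and 40.1 CPM over all cycling cells. Gap43 was 28.1 CPM and Itga3 17.3 CPM, against 271 and 85.8 CPM. Penk was 5.41 CPM in the 19 cells and 10.4 CPM in the 486 other cycling cells. Summed over cells, most cycle genes named as lower were not lower here than in the 486 others. Pclaf was 449 against 379 CPM, Cenpa 444 against 294, Birc5 369 against 291 and Ccnb2 143 against 103 CPM. Anln was 201 (95% interval 173 to 232) against 183 CPM and Spc24 123 (102 to 148) against 121 CPM. Rrm2 was 103 against 150 CPM. Within the 2 tag pairs holding at least 3 cells of each kind, only Pclaf (0.16) and Spc24 (0.22) had means above 0. Ccnb2 (-0.67), Cenpa (-0.53), Birc5 (-0.29), Anln (-0.30) and Rrm2 (-0.66) had means below 0. Pooled over tag pairs, 220 of 228 genes called higher in the low-cycling cells and measured here were above the other 486 cycling cells, beside 46.5% of all genes, and of 444 called lower 376 were below, beside 53.5%. Only 2 tag pairs held at least 3 cells of each kind. Within those the counts were 212 above, beside 44.7% of all genes, and 388 below, beside 54.9%. The 19 cells were also shallower (median 48118 against 62573 UMIs), and with so few cells the single values carry wide counting error: the 95% interval of Itga1 was 221 to 287 CPM.

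The share of Mgp/Prg4-rich cells among low-cycling cells differed between tag pairs. It was 6.93% at the lowest (7 of 101 cells, exact Clopper-Pearson 95% interval 2.83 to 13.8%), 24.7% at the median and 50% at the highest (9 of 18 cells, 26.0 to 74.0%). Each of the 18 pairs held between 3 and 22 of the cells, so no single pair supplied the set. Mgp in these cells ran from 57.3 to 6159 CPM and Prg4 from 79.0 to 965 CPM over the 18 pairs, the highest Mgp value coming from a pair with 3 such cells.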

How the data were processed

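The deposited values were UMI counts per gene and hashtag counts per barcode, which the authors made with Cell Ranger (6.1.2 per the file headers, 2.1.1 with GRCm38 per the submitters' processing notes). The matrix held 93843218 gene UMIs, 32285 genes and 10 hashtags in 20917 barcodes. Cells had at least 5000 gene UMIs (1856 barcodes), at most 15% mitochondrial UMIs (1657) and a second hashtag at least 3 times the third (1514). Barcodes with 3 tags were removed by that rule; doublets within a tumor were not looked for, and no caller was run. The members and gene lists were chosen with earlier results of these data known. With 1 pooled library no test between the sets was made. Named genes are Mgp, Prg4, Itga1, the 20 highest and 12 lowest called genes detected in 25% or more of the cells of the set where they are high, and up to 4 genes of each list with the largest difference; other genes named were chosen after their values were seen. Some of these genes are not reported here. Of 634 program genes and the markers, 5 did not match. Intervals are exact 95% intervals for counting error only. Gene coordinates are GENCODE M21 on GRCm38. Calculations used Python 3.11.15, numpy 2.4.6, scipy 1.17.1, pandas 2.3.3 and matplotlib 3.10.9, and the comparison was tested on simulated data. Alternatives varied thresholds, ranking, scaling, pseudocount, weighting and tag pairs.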

Additional observations from a re-analysis of the deposited data

Results flagged for a closer look

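Mgp and Prg4 were also found in barcodes that the comparisons did not use, above the count that 0 UMIs would allow. The 18473 barcodes under 800 UMIs held 86.7 CPM of Mgp and 22.3 CPM of Prg4. The 199 barcodes with over 15% mitochondrial UMIs held 96.3 CPM and 17.2 CPM. The 143 cells without 2 clear hashtags held 175 CPM and 43.2 CPM, and 25.9% and 24.5% of them had a UMI of Mgp or of Prg4.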

How the results depend on the processing

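No paired analysis was possible because the pool was 1 sample, so no samples pair across groups; cells were compared within tag pairs throughout. Under 35 alternatives none of 1190 values of 34 named genes changed sign and 45 moved by more than the SD over tag pairs. These genes include Mgp and Prg4, and the others were picked for large differences in largely the same cells. Their signs were thus largely set by the choice, and their stability is no support. Of 1225 list sums 12 moved as far. No sum of the 9 lists that differed by 1.5-fold or more changed sign, but 24 sums of 7 of the other 26 lists did. The 9 include the calcification inhibitor and synovial lining lists, which hold Mgp or Prg4, and the S phase and G2/M lists, which are close to the rule. Pooled over tag pairs, interferon-gamma (-0.55), class I MHC (-0.34) and lysosome genes (-0.12) turned lower, and class II MHC did with the top 10% (-0.13). YAP and TEAD, type I interferon, and Wnt and Notch sums, all near 0, crossed it. The count of 230 genes higher and 448 lower was 389 and 1085 with a pseudocount of 1 CPM, and 82 and 78 with 50 CPM. It was 348 higher when cells were pooled over tag pairs, 290 lower when ranked by Mgp alone, 239 lower with a cycle sum under 2 per 10000, and 120 and 71 against matched cells. Leaving out each tag pair in turn gave 219 to 254 higher and 415 to 483 lower. The highest share in the 6 tag pairs with most cells was 12.6%, and 4.6% when the top 10% was taken. Depth limits single cells at the threshold, where the nearest cell on either side had 4 UMIs. The fewest UMIs of both genes in any Mgp/Prg4-rich cell was 1.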

Other observations

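The 18 tag pairs, which the labels place in no condition, were divided by cell number. The 6 with most cells held 77 to 171 low-cycling cells each and the other 12 held 15 to 55. That number is also the denominator of the share. The pairs held 6 to 13 Mgp/Prg4-rich cells in the former and 3 to 22 in the latter. A lower share in the larger pairs is thus partly built into the division. For both groups the share of Mgp/Prg4-rich cells and the level of interferon-gamma response genes in cycling cells are given. The 6 pairs with most cells had shares of 6.93%, 7.60%, 7.79%, 9.38%, 11.4% and 12.6%, and their interferon-gamma response levels in the same order were 2951, 3284, 4246, 3991, 5119 and 4163 CPM. The other 12 pairs had shares of 18.75%, 20.0%, 20.0%, 29.4%, 38.0%, 38.1%, 40.0%, 40.0%, 40.5%, 40.7%, 43.5% and 50%, and levels from 422 to 1503 CPM. The point values of neither measure overlapped between these groups. Exact Clopper-Pearson intervals of the shares did. They were 6.48 to 21.5% for the 12.6% share (11 of 87 cells) and 4.05 to 45.6% for the 18.75% share (3 of 16). Within each group share and level were positively correlated. Pearson's r was 0.70 in the 6 pairs (adjusted P = 0.26) and 0.30 in the other 12 (adjusted P = 0.34). Spearman's rho was 0.71 and 0.41 (adjusted P = 0.19 for both). A relation over all pairs was not tested.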
